A study of Homo sapiens with 4 samples.

Results

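The RNA levels of 10 keratin genes were followed in SAS oral cancer cells with and without knockdown of STAU1, a double-stranded RNA-binding protein. The genes were taken from a list of basal keratins (KRT5 and KRT14), stress keratins (KRT6A, KRT6B, KRT16 and KRT17), simple epithelial keratins (KRT8, KRT18 and KRT19) and KRT13, and were matched by symbol to the Ensembl identifiers of the count table. All 10 were found among the 67008 genes listed. Of these 10 genes, 9 passed the filter on low counts and were tested together with the rest of the 14303 tested genes, and KRT13 did not pass it.

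Bulk RNA-sequencing counts were available from 2 libraries of control cells infected with virus carrying an shRNA against luciferase (shLuc, named Ctrl) and 2 libraries of cells infected with virus carrying an shRNA against STAU1 (shSTAU1). Both groups are labelled with a WT genotype and with viral infection as the treatment. The labels name the cells both as an oral cancer line and as C3H 10T1/2, a mouse fibroblast line, whereas the organism, the growth protocol and the design text give human SAS cells, which were assumed here. The labels give 1 name to the shRNA against STAU1, so effects of this construct on other transcripts cannot be told apart from those of STAU1 loss. Nothing states whether the replicates were separate infections or cultures, and the p-values therefore measure only the spread between these libraries, which may be technical.

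The libraries held between 32206655 and 36301574 counts. STAU1 itself was at 249 and 251 CPM (counts scaled to a common library total) in the Ctrl libraries and at 41.6 and 41.5 CPM in the shSTAU1 libraries, which left 16.6% of its Ctrl level (log2 fold change -2.59, SE 0.13, adjusted p = 0.00103, edgeR's quasi-likelihood test with Benjamini-Hochberg adjustment over all tested genes). All 10 squamous epithelial marker genes examined were tested and had reads in every library. The 11 fibroblast marker genes examined summed to 28.9 and 33.4 CPM in the Ctrl libraries and to 27.7 and 18.8 CPM in the shSTAU1 libraries, and 2 of them had no read in any library.

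Keratins are the intermediate filament proteins of epithelial cells, and a filament forms only when an acidic type I keratin pairs with a basic type II keratin. KRT5 (type II) and KRT14 (type I) make up the filaments of the proliferating basal layer of stratified epithelia, whereas KRT8 (type II) pairs with KRT18 and KRT19 (type I) in simple epithelia and often in carcinomas. KRT6A and KRT6B (type II) with KRT16 and KRT17 (type I) are induced in wounds and in stressed or hyperproliferative epithelium, and KRT13 (type I) marks the suprabasal layers of the oral mucosa, where it pairs with KRT4. The type I genes other than KRT18 lie in a cluster on chromosome 17, and the type II genes lie with KRT18 in a cluster on chromosome 12.

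SAS cells carried the RNA of simple and basal keratins side by side. To compare genes, CPM were divided by the length of the transcript in kilobases. The libraries were made with a capture-based kit, so levels and ratios between genes also depend on capture and on the length chosen. Per kilobase of coding sequence, the Ctrl libraries gave 3819 and 3447 CPM for KRT8, 2629 and 2096 for KRT18, and 1828 and 1914 for KRT5. All other levels per kilobase use the transcript length. In the Ctrl cells the mean level was 2476 CPM per kilobase for KRT8, 1951 for KRT18, 1308 for KRT5, 794 for KRT17, 410 for KRT14 and 194 for KRT19. KRT6A followed at 35.6 CPM per kilobase, KRT16 at 3.10 and KRT6B at 0.094, while KRT13 had no read in either Ctrl library. Neighbours in this order did not overlap between the 2 Ctrl libraries, with the exception of KRT6B and KRT13. In the shSTAU1 cells KRT5, at 2051 CPM per kilobase, stood above KRT18, at 1742, and next to KRT8, at 2283, whereas KRT14 (760) and KRT17 (963) overlapped between libraries, as did KRT6B (0.435) and KRT13 (0.346). By its CPM, KRT5 ranked 23 and 21 among all genes in the Ctrl libraries and 9 in both shSTAU1 libraries. KRT8 ranked 10 or 11 in every library. The 10 genes together held 1.5% and 1.35% of all counts in the Ctrl libraries and 1.76% and 1.41% in the shSTAU1 libraries.

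**Figure D1:**
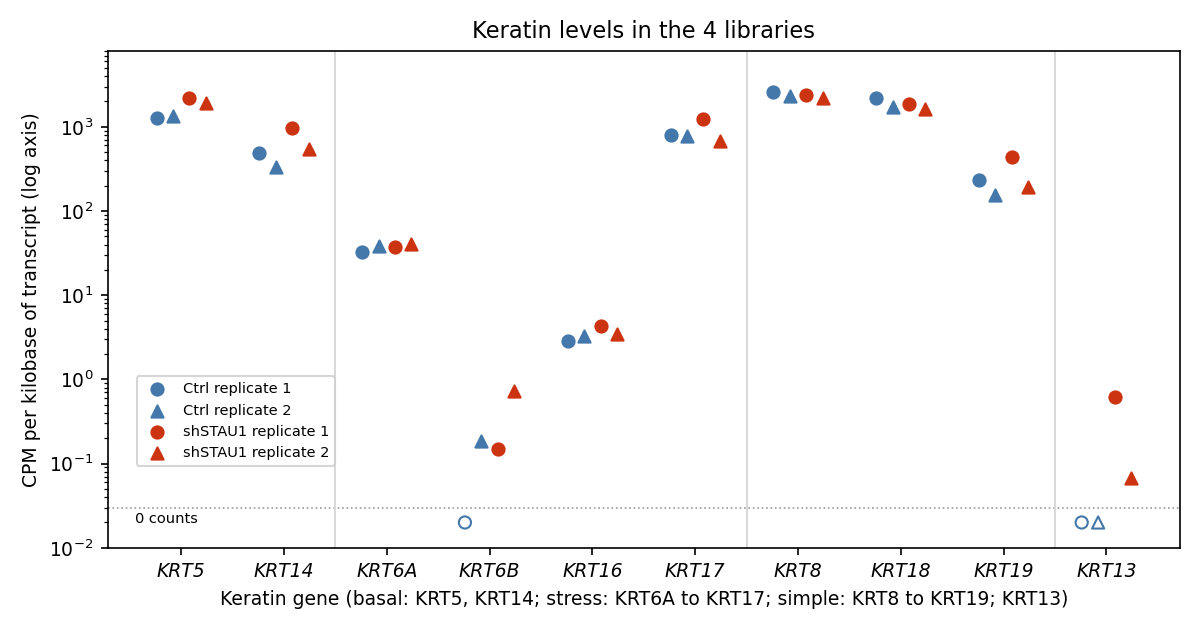
Level of each of the 10 keratins in each library, as CPM per kilobase of transcript on a log axis. Points are single libraries (blue Ctrl, red shSTAU1, circles replicate 1, triangles replicate 2), open symbols under the dotted line mark 0 counts, and both red points of KRT5 and KRT14 stand above both blue ones.

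Of the 9 keratins tested, 1 passed the threshold of 0.05 in edgeR's quasi-likelihood test, the basal keratin KRT5, which rose 1.57-fold in shSTAU1 cells. Among all tested genes 2.6% passed this threshold in either direction, and 1.13% passed it as higher. The groups did not overlap for 3 of the 9 keratins (KRT5, KRT14 and KRT16), all higher in shSTAU1 cells, beside 28.5% of all tested genes whose groups were apart in that direction. No tested keratin was apart in the lower direction, beside 28% of all tested genes. With 1 library left out, edgeR called 1.5% of all tested genes without Ctrl replicate 1, 1.58% without Ctrl replicate 2, 18.4% without shSTAU1 replicate 1 and 12.1% without shSTAU1 replicate 2, so single calls made in the latter fits stand beside many others. In RNA from whole cultures, a larger number of cells of one kind and more RNA per cell cannot be told apart.

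KRT5, the type II keratin of basal cells (chr12:52514575-52520687, minus strand, GRCh38), gave 3236 and 3387 CPM in the Ctrl libraries and 5488 and 4893 CPM in the shSTAU1 libraries. Both shSTAU1 libraries lay above both Ctrl libraries, and the libraries within a group were close to each other. The log2 fold change was 0.65 (SE 0.12, adjusted p = 0.0408, edgeR's quasi-likelihood test). The call was lost with scaling by library size only (adjusted p = 0.0522), without the filter on low counts (0.0989), after each library was corrected for its trend with length and GC content (0.0542), and when Ctrl replicate 1 (0.230) or Ctrl replicate 2 (0.169) was left out, in edgeR fits in which the lone Ctrl library was assumed to vary like the shSTAU1 group. The call held with DESeq2 (adjusted p = 0.000934), which called 10.1% of all tested genes, and with limma-voom (0.0363), which called 2.54%. It also held in edgeR with the replicate number as a block, a fit that called 28.6%. The log2 fold change itself stayed between 0.56 and 0.71 when any 1 of the 4 libraries was left out.

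KRT14, the type I partner of KRT5 (chr17:41582279-41586921, minus strand), gave 802 and 559 CPM in the Ctrl libraries and 1625 and 901 CPM in the shSTAU1 libraries. The groups did not overlap, but shSTAU1 replicate 1 was 1.80 times shSTAU1 replicate 2, and Ctrl replicate 1 was 1.43 times Ctrl replicate 2. By replicate number, which nothing states to mark a batch, shSTAU1 was 2.03 and 1.61 times Ctrl. The log2 fold change of 0.89 (SE 0.28) exceeded that of KRT5 but did not pass the test (adjusted p = 0.112, edgeR's quasi-likelihood test). DESeq2, which called 10.1% of all tested genes on the same counts, called it (log2 fold change 0.89, adjusted p = 0.00602). So did edgeR with the replicate number as a block (0.85), a fit that called 28.6% of all tested genes. Without the block, the edgeR value came to 0.40 on the log2 scale once shSTAU1 replicate 1 was left out. It was 1.24 without shSTAU1 replicate 2 (adjusted p = 2.64e-05) and 1.16 without Ctrl replicate 1 (adjusted p = 0.044), both past the threshold in edgeR. Per kilobase, KRT5 exceeded KRT14 by 2.65 and 3.98 times in the Ctrl libraries and by 2.22 and 3.56 times in the shSTAU1 libraries, ranges that overlapped.

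Of the 4 stress keratins, none passed edgeR's quasi-likelihood test, and none had an unadjusted p under 0.05, beside 24.5% of all tested genes. KRT17 (chr17:41619441-41624842, minus strand) was the most abundant of them, at 1323 and 1297 CPM in the Ctrl libraries and 2071 and 1109 CPM in the shSTAU1 libraries. One shSTAU1 library therefore lay above both Ctrl libraries and the other below both, and the log2 fold change was 0.28 (SE 0.26, adjusted p = 0.537, edgeR). It turned to -0.24 without shSTAU1 replicate 1, and it was 0.64 (adjusted p = 0.00439, edgeR) without shSTAU1 replicate 2.

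KRT6A, the main type II keratin of this type in SAS cells (chr12:52487174-52493257, minus strand), was at 74.3 and 89.9 CPM in the Ctrl libraries and at 87.4 and 93.7 CPM in the shSTAU1 libraries. The groups overlapped (log2 fold change 0.14, SE 0.15, adjusted p = 0.584, edgeR). The shSTAU1 libraries were close for KRT6A, with a ratio of replicate 1 to replicate 2 of 0.933. KRT6B (chr12:52446651-52452126, minus strand) had only 0 and 14 counts in Ctrl cells and 12 and 58 in shSTAU1 cells, which overlapped (log2 fold change 2.21, SE 1.21, adjusted p = 0.298, edgeR). KRT6B passed the test without Ctrl replicate 2 (adjusted p = 0.0369, edgeR) and without shSTAU1 replicate 1 (0.00598), at counts of 58 or fewer. The third KRT6 gene, KRT6C, had 0 and 39 counts in Ctrl cells and 37 and 8 in shSTAU1 cells. Neither KRT6B nor KRT6C therefore had reads in every library.

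The 3 KRT6 genes are near copies, so their counts depend on how reads were shared among them, and the counting program is not given in the sources used here. Over the coding sequence, KRT6A and KRT6B were 97.5% identical, with 42 differing bases in 1692, and 22.9% of all 75-base windows were the same in both. The 60 coding bases of exon 2 in which KRT6A and KRT6B differ most (9 bases) are shown to make this visible, as read from GRCh38 with the GENCODE 29 annotation. The KRT6A bases lie at chr12:52491555-52491614, those of KRT6B at chr12:52450439-52450498 and those of KRT6C at chr12:52472099-52472158, all on the minus strand. Capitals mark positions at which the 3 genes are not all alike.
KRT6A: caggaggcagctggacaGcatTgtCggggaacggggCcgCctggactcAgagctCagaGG
KRT6B: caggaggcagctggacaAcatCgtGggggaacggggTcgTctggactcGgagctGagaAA
KRT6C: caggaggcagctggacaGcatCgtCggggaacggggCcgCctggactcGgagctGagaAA

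KRT16, the type I stress keratin that pairs with KRT6 (chr17:41609778-41615899, minus strand), was low, at 4.76 and 5.44 CPM in the Ctrl libraries and 7.12 and 5.74 CPM in the shSTAU1 libraries. Both shSTAU1 libraries lay above both Ctrl libraries, but the difference did not pass the test (log2 fold change 0.34, SE 0.25, adjusted p = 0.445, edgeR). Per kilobase, KRT6A exceeded KRT16 by 11.1 and 11.8 times in the Ctrl libraries and by 8.73 and 11.6 times in the shSTAU1 libraries.

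In 3 of the 4 libraries, more reads were assigned to pseudogenes named after KRT16 than to KRT16 itself. KRT16 had 160 and 178 counts in Ctrl cells and 248 and 203 in shSTAU1 cells. The 6 KRT16 pseudogenes together had 263 and 161 counts in Ctrl cells and 1263 and 373 in shSTAU1 cells, so that Ctrl replicate 2 was the exception. Summed over the libraries of a group, this was 125% of the KRT16 counts in Ctrl cells and 363% in shSTAU1 cells. Most of these fell on KRT16P6 (chr17:16817983-16822579, minus strand), with 185 and 86 counts in Ctrl cells and 1117 and 315 in shSTAU1 cells. Its groups did not overlap, and its log2 fold change of 2.33 (SE 0.60) did not pass the test (adjusted p = 0.0744, edgeR). It passed in edgeR without Ctrl replicate 1 (2.95), without shSTAU1 replicate 1 (1.13) and without shSTAU1 replicate 2 (2.96). When the pseudogene counts were added to KRT16, its log2 fold change became 1.38, which did not pass the test either (adjusted p = 0.098, edgeR).

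Although it is named after KRT16, KRT16P6 was closer in sequence to KRT14 over the aligned bases, with 95.6% identity to the KRT14 coding sequence and 86.4% to that of KRT16. Gaps, 214 bases against KRT14 and 170 against KRT16, are not counted in these figures. The counts of KRT16P6 amounted to 0.686% and 0.470% of the KRT14 counts in the Ctrl libraries and to 1.97% and 0.989% in the shSTAU1 libraries. The 60 bases of exon 5 in which KRT16 and KRT16P6 differ most are shown. They were picked for that difference, so their distance from KRT16 is no measure of likeness. KRT16P6 differs from KRT16 at 21 of these bases and from KRT14 at 3. The sequences lie at chr17:41610888-41610947 for KRT16, chr17:16819292-16819351 for KRT16P6, chr17:41583585-41583644 for KRT14 and chr17:41621000-41621059 for KRT17, all on the minus strand of GRCh38. Capitals mark positions at which the 4 genes are not all alike.
KRT16: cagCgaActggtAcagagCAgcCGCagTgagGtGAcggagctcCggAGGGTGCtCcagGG
KRT16P6: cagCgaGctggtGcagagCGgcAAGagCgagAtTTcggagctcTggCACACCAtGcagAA
KRT14: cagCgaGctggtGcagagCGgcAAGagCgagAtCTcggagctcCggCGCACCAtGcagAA
KRT17: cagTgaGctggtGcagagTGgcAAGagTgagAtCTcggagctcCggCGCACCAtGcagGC
How many KRT16P6 reads came from other keratin transcripts was not tested.

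None of the 3 simple keratins passed edgeR's quasi-likelihood test, beside 2.6% of all tested genes. None had an unadjusted p under 0.05 in that test, beside 24.5%. With only 3 genes, these counts cannot be set apart from the shares over all tested genes. KRT8 (chr12:52897187-52949954, minus strand), the main type II keratin of simple epithelia, gave 5534 and 4995 CPM in the Ctrl libraries and 5018 and 4691 CPM in the shSTAU1 libraries. The groups overlapped, with a log2 fold change of -0.12 (SE 0.12, adjusted p = 0.582, edgeR). KRT18 (chr12:52948871-52952901, plus strand), its type I partner, gave 3392 and 2703 CPM in the Ctrl libraries and 2878 and 2563 CPM in the shSTAU1 libraries. These groups overlapped too (log2 fold change -0.16, SE 0.15, adjusted p = 0.526, edgeR). Per kilobase, KRT8 exceeded KRT18 by 1.20 and 1.36 times in the Ctrl libraries and by 1.28 and 1.34 times in the shSTAU1 libraries.

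KRT8 and KRT18 lie beside each other on opposite strands and share 525 exonic bases in the annotation, so reads from these bases could be assigned to either gene if strand was not used. The 51 KRT8 pseudogenes held 3.62% as many counts as KRT8 in Ctrl cells and 3.04% in shSTAU1 cells, with KRT8P3 leading. The 67 KRT18 pseudogenes held 1.13% and 0.756% as many as KRT18. The leading one, KRT18P31, had 433 and 468 counts in Ctrl cells and 189 and 235 in shSTAU1 cells, and it fell by 1.17 on the log2 scale (SE 0.22, adjusted p = 0.0408, edgeR). That call was lost without the filter on low counts (adjusted p = 0.105, edgeR) and without Ctrl replicate 1 (0.071) or Ctrl replicate 2 (0.138). KRT18P31 is 90.6% identical to the coding sequence of KRT18. Adding the pseudogene counts left KRT8 at -0.13 and KRT18 at -0.17 on the log2 scale.

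KRT19, a type I simple keratin that is also found in basal cells of some stratified epithelia (chr17:41523617-41528308, minus strand), gave 324 and 216 CPM in the Ctrl libraries and 612 and 268 CPM in the shSTAU1 libraries. Only shSTAU1 replicate 1 lay above both Ctrl libraries, and shSTAU1 replicate 2 lay between them. By replicate number, shSTAU1 was 1.89 and 1.24 times Ctrl. The log2 fold change was 0.71 (SE 0.36, adjusted p = 0.268, edgeR's quasi-likelihood test). It was -0.0084 without shSTAU1 replicate 1 and 1.16 (adjusted p = 9.07e-05, edgeR) without shSTAU1 replicate 2.

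KRT13, the type I keratin of suprabasal oral mucosa (chr17:41500981-41505705, minus strand), had no count in Ctrl cells and 37 and 4 in the libraries of shSTAU1 cells. Against a floor of 3 counts over the Ctrl group, its shSTAU1 level was 12.9-fold higher, and 2.50-fold without shSTAU1 replicate 1. These values allow for counting error in the Ctrl group only. The shSTAU1 counts were taken as exact, so neither value is a firm lower bound. KRT13 was too low to be tested under the filter. Without the filter its adjusted p was 0.202 (edgeR). An antisense gene shares 476 exonic bases with KRT13, and whether the reads came from it was not tested. KRT4, the type II partner of KRT13, had 11 and 0 counts in Ctrl cells and 7 and 0 in shSTAU1 cells.

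When the keratins were added up by type, the basal keratins took a larger share of the RNA of the 10 genes in shSTAU1 cells. The abundant KRT7, a type II keratin of glandular and simple epithelia, is not among the 10 and not in the shares below. It gave 4117 and 4444 CPM in the Ctrl libraries and 5439 and 4628 CPM in the shSTAU1 libraries. Of the summed CPM per kilobase of the 10 genes, KRT5 and KRT14 made up 23.2% and 24.9% in the Ctrl libraries and 34.6% and 34.2% in the shSTAU1 libraries. The simple keratins made up 65.8% and 62.9% in the Ctrl libraries and 51.1% and 55.9% in the shSTAU1 libraries. The groups did not overlap for either type. The shares are parts of 1 sum, however, so a larger basal share lowers the simple share. The simple sum in CPM, given below, overlapped between the groups. Among single tested genes, 28.5% were apart as higher and 28% as lower. The stress keratins made up 11% and 12.3% in the Ctrl libraries and 14.3% and 9.90% in the shSTAU1 libraries, which overlapped. These shares are a description of sums carried by a few abundant genes and were not tested, and with 2 libraries against 2 an exact permutation test could not give a two-sided p below 0.333.

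**Figure D2:**
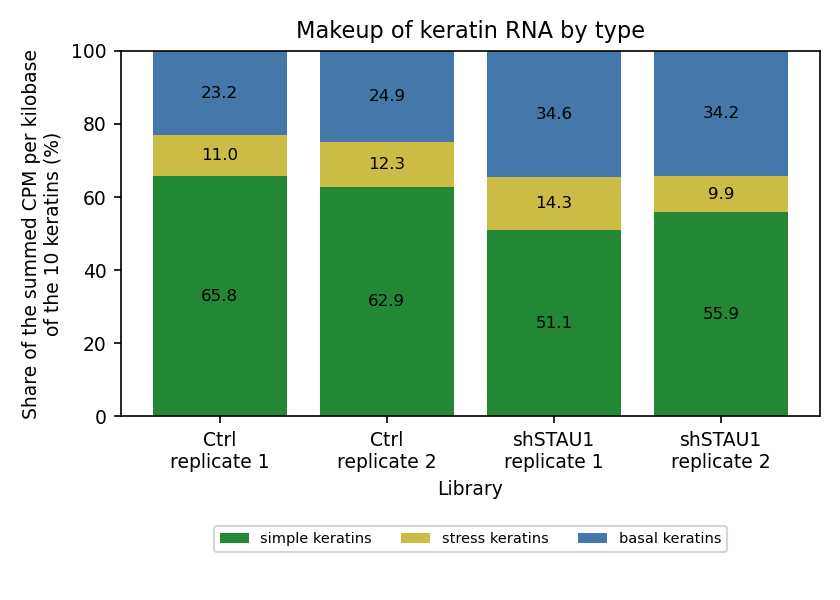
Stacked bars of the share (%) that the simple, stress and basal keratins took of the summed CPM per kilobase of the 10 genes, without KRT7, in each of the 4 libraries. The basal share was 23.2% and 24.9% in the Ctrl libraries and 34.6% and 34.2% in the shSTAU1 libraries, and KRT13 is too low to be seen.

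On the CPM scale, the basal sum was 4038 and 3946 in the Ctrl libraries and 7113 and 5795 in the shSTAU1 libraries, a ratio of group means of 1.62. The simple sum without KRT7 was 9250 and 7914 in the Ctrl libraries and 8508 and 7522 in the shSTAU1 libraries, a ratio of 0.934. The stress sum was 1403 and 1393 in the Ctrl libraries and 2166 and 1210 in the shSTAU1 libraries, a ratio of 1.21 that became 0.865 without shSTAU1 replicate 1. The basal ratio was 1.45 without that library, and the simple ratio turned to 1.01 without Ctrl replicate 1. Per kilobase, the basal to simple ratio was 0.352 and 0.395 in the Ctrl libraries and 0.678 and 0.613 in the shSTAU1 libraries. By contrast, the summed type II members stood at 1.06 and 1.24 times the summed type I members in the Ctrl libraries. In the shSTAU1 libraries they stood at 1.01 and 1.37 times, so this ratio overlapped between the groups. With KRT7 added to the type II sum, the ratio was 1.70 and 2.08 in the Ctrl libraries. It was then 1.70 and 2.23 in the shSTAU1 libraries, which overlapped too.

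The members differed in how far the libraries of a group lay apart. Between the shSTAU1 libraries, replicate 1 exceeded replicate 2 by 1.80 times for KRT14, 1.87 times for KRT17 and 2.28 times for KRT19, whereas the ratio was 1.12 for KRT5, 1.07 for KRT8 and 1.12 for KRT18. Among the 7776 genes whose mean reached 10 CPM, 95% had a ratio between the shSTAU1 libraries within 1.60-fold in either direction, and 45.1% were higher in replicate 1. The same limit between the Ctrl libraries was 1.40-fold, and KRT14 (1.43) and KRT19 (1.5) were past it there, again with replicate 1 higher.

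**Figure D3:**
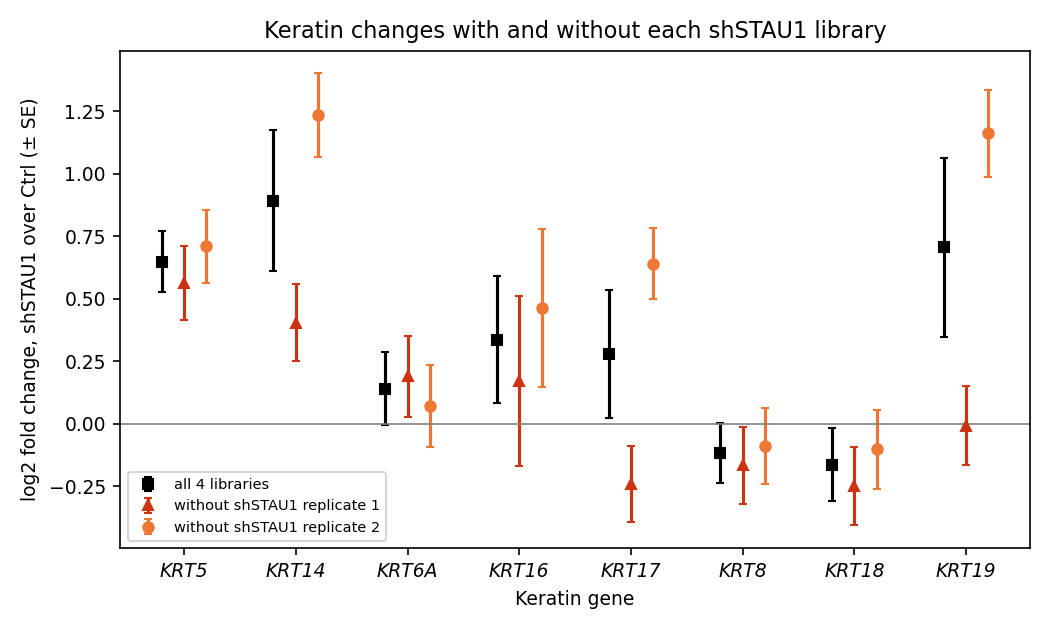
Log2 fold change (shSTAU1 over Ctrl) of 8 keratins with all 4 libraries and with either shSTAU1 library left out, with bars of 1 SE from edgeR's quasi-likelihood fit. KRT17 was 0.28 with all libraries, -0.24 without shSTAU1 replicate 1 and 0.64 without shSTAU1 replicate 2, while KRT5 stayed above 0.5 throughout.

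The abundant keratins of the chromosome 17 cluster had larger ratios between the shSTAU1 libraries than those of the chromosome 12 cluster. This comparison and its limit of 10 CPM were chosen after the values were seen, and the difference between the clusters was not tested. In the chromosome 17 cluster (chr17:40654665-41624842), 4 keratin genes reached a mean of 10 CPM (KRT14, KRT15, KRT17 and KRT19). All 4 were higher in shSTAU1 replicate 1 than in replicate 2, with a median log2 ratio of 1.05 and a range of 0.85 to 1.93. The tested type I keratins of the cluster below that level did not share this gap, with log2 ratios of 0.31 for the member KRT16, 0.34 for KRT9 and -0.32 for KRT10. The 16 other protein-coding genes at that level within 500000 bases of the cluster or inside it had a median of -0.12. They ran from -0.44 to 0.81, and 7 of them were higher in replicate 1. The highest of these was JUP, which encodes plakoglobin, a protein of the desmosomes to which keratin filaments attach. In the chromosome 12 cluster (chr12:52168996-52952901), 7 keratin genes, 6 of type II and the type I gene KRT18 (0.17), had a median of 0.17. Their range was -0.10 to 0.42, beside a median of -0.07 for 14 other protein-coding genes. Large gaps between shSTAU1 replicates 1 and 2 also occurred outside the clusters. KRT16P6 was at 32.1 and 8.91 CPM in these libraries and CDH1 at 826 and 474 CPM. VIM, at 11.7 and 22.5 CPM, went the other way. What set the 2 shSTAU1 libraries apart was not tested.

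**Figure D4:**
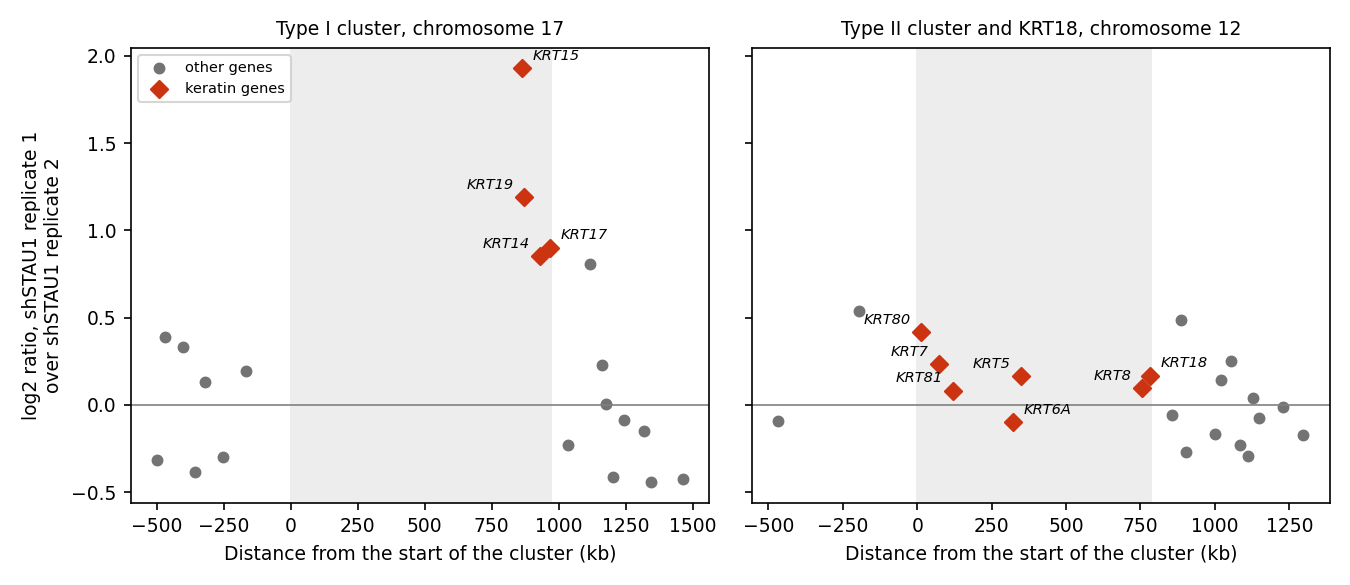
Log2 ratio of CPM between shSTAU1 replicate 1 and replicate 2 for protein-coding genes whose mean reached 10 CPM, plotted by distance (kb) from the start of the keratin cluster on chromosome 17 (left) and chromosome 12 (right). Red diamonds are keratin genes, grey circles are other genes and the grey band is the cluster. The keratins on the left lie between 0.85 and 1.93 and those on the right between -0.10 and 0.42.

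Among the 45 other keratin genes, 27 had no read in any library, 9 were tested and none passed edgeR's quasi-likelihood test, with 1 at an unadjusted p under 0.05 and 1 called by DESeq2, fewer than the 24.5% of all tested genes at that unadjusted p. Their median log2 fold change was 0.12, beside 0.0059 for all tested genes. KRT7, a type II keratin of glandular and simple epithelia, was by far the most abundant, at 4117 and 4444 CPM in the Ctrl libraries and 5439 and 4628 CPM in the shSTAU1 libraries. Its groups did not overlap, but its log2 fold change of 0.23 did not pass the test (adjusted p = 0.305, edgeR). KRT15, a type I keratin of basal cells, was at 15.9 and 12.2 CPM in the Ctrl libraries and at 39.9 and 10.5 CPM in the shSTAU1 libraries, so that only shSTAU1 replicate 1 was high (adjusted p = 0.350, edgeR). The hair keratin KRT81 had a log2 fold change of -0.70 (adjusted p = 0.128, edgeR), KRT80 of -0.37 and KRT10, which marks differentiating epidermis, of 0.43. KRT81 was the one called by DESeq2 (adjusted p = 0.0418). Without shSTAU1 replicate 1, a fit that called 18.4% of all tested genes, 3 of the other keratins passed in edgeR, and KRT15 was at -0.42 on the log2 scale. It was at 1.49 (adjusted p = 4.14e-05, edgeR) without shSTAU1 replicate 2.

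Proteins that tie keratin filaments to junctions or bind them were examined next. Of 24 such genes, 20 were tested, 1 rose and 1 fell in edgeR's quasi-likelihood test, beside 2.6% of all tested genes that passed it. An unadjusted p under 0.05 in that test was reached by 8 of the 20 (3 higher and 5 lower), beside 24.5% of all tested genes. The median log2 fold change of the 20 was 0.03. SFN, the epithelial 14-3-3 protein that binds stress keratins, rose from 38.4 and 27.1 CPM in the Ctrl libraries to 92.1 and 84.3 CPM in the shSTAU1 libraries (log2 fold change 1.43, SE 0.19, adjusted p = 0.0285). PKP1, a desmosomal plaque protein of stratified epithelia, fell from 43.5 and 36.6 CPM to 23.1 and 19.1 CPM (log2 fold change -0.92, SE 0.18, adjusted p = 0.0429). Both changes were apart between the groups in every library. Without the filter on low counts neither of them passed (adjusted p = 0.0966 for SFN and 0.114 for PKP1, edgeR), and the PKP1 call was also lost with the correction for length and GC (0.0572) and without Ctrl replicate 1 (0.148) or Ctrl replicate 2 (0.0535). The most abundant genes of this group did not pass the test. Their log2 fold changes were -0.55 for the linker PLEC (plectin, adjusted p = 0.0649), -0.08 for DST (dystonin), 0.08 for DSP (desmoplakin), 0.44 for the 14-3-3 gene YWHAZ (adjusted p = 0.081) and -0.18 for PNN (pinin). With 1 library left out, between 1 and 9 of these genes passed, with 8 without shSTAU1 replicate 1 and 9 without shSTAU1 replicate 2, fits that called 18.4% and 12.1% of all tested genes.

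Of 43 transcription factors and signalling genes known to act on keratin genes or epithelial identity, 41 were tested and none passed edgeR's quasi-likelihood test, with 12 at an unadjusted p under 0.05 (7 higher and 5 lower) and 1 called by DESeq2. The share at that unadjusted p was near the 24.5% of all tested genes. Their median log2 fold change was -0.02. TP63, the master regulator of stratified epithelium and of KRT5 and KRT14, was at 195 and 159 CPM in the Ctrl libraries and 260 and 176 CPM in the shSTAU1 libraries. The groups overlapped (log2 fold change 0.30, adjusted p = 0.390), and the log2 fold change was -0.0089 without shSTAU1 replicate 1 and 0.54 (adjusted p = 0.0223, edgeR) without shSTAU1 replicate 2. The other abundant members had log2 fold changes of -0.05 for GRHL2, -0.15 for STAT3, -0.18 for NOTCH1 and -0.32 for YAP1. Without shSTAU1 replicate 1, 4 of the 41 genes passed, beside 18.4% of all tested genes, and without shSTAU1 replicate 2, 10 of them passed, beside 12.1%.

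Of the 16 other intermediate filament genes, 9 were tested and 1 passed, beside 2.6% of all tested genes. In the same edgeR test, 4 of the 9 had an unadjusted p under 0.05 (2 higher and 2 lower), beside 24.5% of all tested genes. VIM, the vimentin gene of mesenchymal cells, fell from 45.9 and 46.9 CPM in the Ctrl libraries to 11.7 and 22.5 CPM in the shSTAU1 libraries (log2 fold change -1.44, SE 0.28, adjusted p = 0.0467, edgeR's quasi-likelihood test). The call was lost without the filter on low counts (adjusted p = 0.127) and with the correction for length and GC (0.0573). The nuclear lamins did not pass, with log2 fold changes of 0.03 for LMNA, 0.33 for LMNB1 and 0.61 for LMNB2 (adjusted p = 0.0967). SYNM, which encodes synemin, had a log2 fold change of -0.70 and did not pass. LMNB1 (0.59) and LMNB2 (0.77) passed without shSTAU1 replicate 1, and SYNM (-1.17) passed without shSTAU1 replicate 2.

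Among the 10 squamous markers, which include KRT5, KRT14, SFN and PKP1, 3 rose and 1 fell, beside 2.6% of all tested genes that passed. An unadjusted p under 0.05 in edgeR's test was reached by 7 of the 10 (5 higher and 2 lower), beside 24.5% of all tested genes. This list was chosen with earlier results of these data known. Besides KRT5 and SFN, the calcium-binding protein gene S100A2 rose from 60.8 and 57.1 CPM to 99.2 and 112 CPM (log2 fold change 0.84, SE 0.14, adjusted p = 0.0358, edgeR's quasi-likelihood test). Its call was lost without the filter on low counts (adjusted p = 0.0989), with the correction for length and GC (0.0571) and without Ctrl replicate 1 (0.0803) or Ctrl replicate 2 (0.119). CDH1, which encodes E-cadherin, and PERP, a desmosomal membrane protein, did not pass, with log2 fold changes of -0.29 and 0.09. Without shSTAU1 replicate 1 the value of CDH1 was -0.74 (adjusted p = 0.000242, edgeR), and without shSTAU1 replicate 2 it was 0.039. Of the 6 fibroblast markers tested, 2 had an unadjusted p under 0.05 in that test (1 higher and 1 lower), and 1 passed. The collagen gene COL1A1 fell from 15.7 and 20.2 CPM to 7.84 and 6.25 CPM (log2 fold change -1.35, adjusted p = 0.036, edgeR). This call was lost without the filter on low counts (adjusted p = 0.0989), with the correction for length and GC (0.0501) and without Ctrl replicate 2 (0.0928). The other fibroblast markers with most reads had log2 fold changes of 1.01 for COL1A2, -0.44 for COL6A3, 0.34 for FAP and -0.38 for PDGFRB, and none of these passed. COL1A2 passed without shSTAU1 replicate 1 (1.33), and FAP passed without shSTAU1 replicate 2 (0.76) and was at -0.28 without shSTAU1 replicate 1.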

How the data were processed

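RNA from 2 Ctrl and 2 shSTAU1 libraries was prepared by the authors with a capture-based kit (TruSeq RNA Exome). The deposited values are raw counts per gene, whole numbers without normalization. Partek and hg38 are named in the submitters' processing notes. Which aligner and counter were used, and whether strand was, are not given in the sources used here. Every sample column was mapped to a library by its label. Of 67008 genes, 42005 had a symbol, and 58561, with 99.87% of the counts, were in GENCODE 29, which gave positions, lengths and sequences.

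The groups were compared by the quasi-likelihood test of edgeR 4.0.16 (R 4.3.3) after filterByExpr, which kept 14303 genes with 99.9% of the counts, and TMM scaling. P-values were adjusted by Benjamini-Hochberg over these genes, with a threshold of 0.05. The authors state no test for this experiment. CPM are relative to the TMM-scaled library size, and an SE is the absolute log2 fold change divided by the square root of F. The biological coefficient of variation was 19.1%. The total counts make counting error small for the abundant keratins, and the spread between 2 libraries limits the precision. Alternatives were DESeq2 1.42.0, scaling by library size, no filter, limma-voom (limma 3.58.1), the replicate number as a block, a correction for length and GC content, other thresholds, leaving out each library, and adding pseudogene counts matched by symbol. The edgeR, library-size, limma-voom, DESeq2, block and length and GC fits were tested on simulated data. The simulation had less spread than these libraries and no replicate effect. Fits without the filter, with a library left out or with pseudogene counts added were not tested in this way. Coding sequences were aligned with Biopython 1.88.

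The members and gene lists were chosen with earlier results of these data known. Genes named are STAU1, the members, the leading pseudogene of a member, and from each list those past the threshold and the 5 with the highest mean CPM. KRT4, KRT6C, KRT9 and JUP, and the comparison of the gene clusters, were added after their values were seen.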

Additional observations from a re-analysis of the deposited data

How the results depend on the processing

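Over the alternatives, 82 of 103 member values kept their direction and their side of the threshold. KRT5 kept its direction in all of them and missed the threshold in 5, those without either Ctrl library and 3 others, with log2 fold changes of 0.60 by library size only, 0.64 without the filter and 0.62 after the length and GC correction. DESeq2 called KRT14 (0.89). Members called numbered 2 with DESeq2, 0 by library size only, 0 without the filter, 0 after the length and GC correction, and 2 when a 1.5-fold change and an unadjusted p of 0.05 were used instead. Under these settings, other keratins called were 1 with DESeq2 and 1 at the fold threshold. Linkers called were 7 with DESeq2, 0 without the filter, 1 after the correction, 6 at an adjusted p under 0.10 and 4 at the fold threshold. Regulators called were 1 with DESeq2, 1 at 0.10 and 7 at the fold threshold. Over all genes 372 were called (2.6%), 1449 with DESeq2 (10.1%) and 11 without the filter (0.0443%). By library size only 2.82% were called, and after the length and GC correction 1.04%. Shares over all genes were not computed at an adjusted p under 0.10 or at the fold threshold. The counts at those thresholds are therefore given without a comparison.

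Leaving out 1 library gave log2 fold changes of 0.56 to 0.71 for KRT5, 0.40 to 1.24 for KRT14, -0.0059 to 0.28 for KRT6A (lowest without Ctrl replicate 1), 0.67 to 8.11 for KRT6B (a fit against 0 counts without Ctrl replicate 2, and no bound), -0.24 to 0.64 for KRT17 and -0.0084 to 1.16 for KRT19. Members called ran from 1 to 4, other keratins from 0 to 3, linkers from 1 to 9, regulators from 0 to 10, the basal ratio from 1.45 to 1.78, the stress ratio from 0.865 to 1.55 and the simple ratio from 0.866 to 1.01. Of all tested genes, 1.5% to 18.4% were called in these fits. A lone library was assumed to vary like the other group.

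Nothing states that the replicate numbers mark a batch. Deviations of same-numbered libraries correlated at 0.233 over 14303 genes and 0.587 over 4787 abundant ones, from 2 pairs. With the replicate number as a block, 28.6% of all tested genes were called, and 4 members were called, with KRT14 at 0.85, KRT6B at 2.52 and KRT19 at 0.62, and 5 other keratins, 10 linkers and 17 regulators. With the block and the length and GC correction these were 22.8%, 4, 0.75, 2.50, 0.49, 2, 8 and 13.

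Of 34 other named genes, 15 of 373 values reversed: with 1 library left out, KRT15 (-0.42 to 1.49), DSP (-0.11 to 0.22), TP63 (-0.0089 to 0.54) and FAP (-0.28 to 0.76) were lowest without shSTAU1 replicate 1, CDH1 (-0.74 to 0.039) and PDGFRB (-1.48 to 0.22) highest without shSTAU1 replicate 2, PERP (-0.0058 to 0.17) lowest and GRHL2 (-0.24 to 0.15, and 0.018 without shSTAU1 replicate 1) highest without Ctrl replicate 2, and LMNA (-0.034 to 0.084) lowest without Ctrl replicate 1. LMNA was also -0.020 by library size only, and DST (0.16) and GRHL2 (0.041) reversed after the correction, or 0.16 and 0.050 with the block as well. The causes were not tested. KRT13 has no value under settings that keep the filter, and DESeq2 gave no adjusted p for KRT6B.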
